A study of Mus musculus with 24 samples.

Results

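The interferon-stimulated genes are described here as a set of 39 named genes measured in mouse splenic B cells. A probe set of the Affymetrix array was taken for a gene when the gene was the only symbol that the platform's probe-to-gene table gives it, and the probe set with the highest mean over the 24 arrays represented each gene. This gave values for 37 of the 39 genes, out of 14335 genes tested. Ifi44 and Isg15 have no probe set of their own by this rule and are not analysed here. Of the 37, 16 had several probe sets, and all 37 passed the filter on low values, which asks for a signal above the 40th percentile of the array in at least 3 arrays. That level is called the filter level below and lay between 5.37 and 6.42 on a log2 scale.

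The study compares B cells without NFATc1, a transcription factor that calcium signalling switches on downstream of the antigen receptor, with control B cells. The deficient mice (KO) have Nfatc1 alleles whose exon 3 lies between loxP sites, and a Cre recombinase from the Cd79a (mb1) locus, which is active through the B lineage. The control mice are labelled WT, and the labels do not say whether they carry the Cre gene or a loxP allele. All mice are given as C57BL/6 and 6 to 8 weeks old. Splenic B cells were enriched with magnetic beads and taken without stimulation (0 h) or after 3, 8 or 16 h of anti-IgM, which imitates antigen by binding the surface receptor. Each of the 8 groups of genotype and time holds 3 arrays numbered as replicates, and all 24 enter every fit. The labels do not say whether replicates come from separate mice, so the p-values measure the spread between these arrays, nor whether mice were pooled or whether equal replicate numbers at different times stand for the same mice.

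Type I interferons bind the receptor IFNAR1-IFNAR2, whose kinases phosphorylate STAT2. It acts with IRF9 in a complex, ISGF3, that binds the interferon-stimulated response element and switches on antiviral genes. Interferon gamma acts at the gamma-activated site and leads in turn to IRF1. Many of these genes are also held at a steady level by low tonic interferon, so resting lymphocytes express them without infection.

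The promoters of 6 members are shown because these members stand for the courses described below, and because they hold a core of one of the 2 elements. Each is the 250 bases upstream of a transcription start in the RefSeq annotation of mouse assembly GRCm38.p6, written 5′ to 3′ on the gene's strand, with matches in capitals. The response element was searched as 2 copies of GAAA in the same direction with any 2 bases between them, which reads as TTTC copies on the other strand, and the gamma-activated site as TTCNNNGAA. Ifit3 lies on the plus strand (chr19:34583279-34583528), Rsad2 on the minus strand (chr12:26456453-26456702), Gbp2 on the plus strand (chr3:142620413-142620662) and Gbp3 on the plus strand (chr3:142559794-142560043). Cxcl10 lies on the minus strand (chr5:92348890-92349139) and Irf1 on the plus strand (chr11:53769764-53770013). The match in Irf1 is to the gamma-activated site and those in the other 5 are to the response element.
Ifit3: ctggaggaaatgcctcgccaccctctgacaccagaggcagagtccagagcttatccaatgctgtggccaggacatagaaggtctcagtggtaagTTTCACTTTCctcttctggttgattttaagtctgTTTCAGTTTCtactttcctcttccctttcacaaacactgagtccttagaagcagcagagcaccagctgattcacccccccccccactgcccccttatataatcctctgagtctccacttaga
Rsad2: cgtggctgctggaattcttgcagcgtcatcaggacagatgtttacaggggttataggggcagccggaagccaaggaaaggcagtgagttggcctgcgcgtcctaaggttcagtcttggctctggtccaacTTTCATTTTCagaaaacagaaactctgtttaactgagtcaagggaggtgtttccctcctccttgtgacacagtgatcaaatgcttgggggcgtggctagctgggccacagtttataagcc
Gbp2: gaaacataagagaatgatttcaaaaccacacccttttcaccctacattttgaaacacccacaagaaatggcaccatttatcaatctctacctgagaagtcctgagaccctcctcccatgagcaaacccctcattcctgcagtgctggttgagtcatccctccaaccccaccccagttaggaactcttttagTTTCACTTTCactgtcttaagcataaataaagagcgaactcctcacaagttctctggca
Gbp3: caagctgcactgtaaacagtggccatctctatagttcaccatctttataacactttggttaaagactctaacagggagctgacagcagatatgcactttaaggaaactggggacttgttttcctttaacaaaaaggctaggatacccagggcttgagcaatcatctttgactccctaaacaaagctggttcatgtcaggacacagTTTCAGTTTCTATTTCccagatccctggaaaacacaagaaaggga
Cxcl10: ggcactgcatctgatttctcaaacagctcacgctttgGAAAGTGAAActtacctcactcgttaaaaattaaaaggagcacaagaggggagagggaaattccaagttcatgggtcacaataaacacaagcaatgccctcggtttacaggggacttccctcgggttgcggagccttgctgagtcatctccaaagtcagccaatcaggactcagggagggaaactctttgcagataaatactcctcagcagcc
Irf1: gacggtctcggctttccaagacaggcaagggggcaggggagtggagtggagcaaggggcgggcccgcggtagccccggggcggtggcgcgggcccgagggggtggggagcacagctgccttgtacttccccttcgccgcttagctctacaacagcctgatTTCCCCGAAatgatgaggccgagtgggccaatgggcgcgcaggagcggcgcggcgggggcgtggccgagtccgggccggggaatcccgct
Ifit3 holds matches that begin 156 and 122 bases before the start site, and Gbp3 holds 2 that overlap each other and begin 45 and 39 bases before it. The single matches of Rsad2, Gbp2 and Cxcl10 begin 120, 59 and 213 bases before the start site, and that of Irf1 begins 90 bases before it. Over a window that also takes the first 50 transcribed bases, both strands searched, the response element core was found for 12 of the 28 members with a promoter in the table (42.9%) and for 3.99% of all 27025 genes there. The gamma-activated core was found for 7 of these 28 members (25%) and for 9.55% of all genes. These matches are letters in a window and not measured sites, and the array data do not test them.

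On the arrays as a whole, all 24 correlated best with arrays of their own time. All 6 tested B cell markers lay above the filter level in every group, with summed log2 levels from 14.89 to 16.7, and 5 of the 6 fell at 3 h in both genotypes. On its brightest probe set Nfatc1 read 11.79 to 12.01 in WT and 12.06 to 12.30 in KO at 0 h, 13.12 to 13.31 and 13.75 to 13.95 at 3 h, 12.29 to 12.71 and 13.07 to 13.28 at 8 h, and 11.65 to 12.08 and 12.40 to 12.70 at 16 h. KO was higher without overlap at each time, by 0.56 over the 4 times (adjusted p = 1.12e-05). The files do not place that probe set relative to the deleted exon, so it does not check the genotype. The 4 WT arrays numbered 2 have male-type expression (Y-linked genes high, Xist low), and the KO arrays numbered 2 at 8 and 16 h have the highest median signals, 6.83 and 6.98. Differences below are log2 signal, given with limma's standard error (SE) and its p adjusted over all 14335 genes by the Benjamini-Hochberg method, and a gene is said to rise or fall when that p is under 0.05.

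In WT cells 24 of the 37 interferon-stimulated genes fell within 3 h of anti-IgM and 1 rose, against 21.3% of all genes lower and 17% higher. In KO cells 27 fell and 1 rose, against 21.7% lower and 16.6% higher. The median change of the 37 was -1.48 in WT and -1.69 in KO, where that of all genes was -0.14 and -0.11. The genes that fell in both genotypes numbered 23, and Cxcl10 rose in both. In RNA from a bulk cell population, fewer cells of a type and less RNA per cell cannot be told apart.

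The fall reached most of the factors that switch on these genes. Stat2, a subunit of ISGF3, had WT signals of 9.64, 9.62 and 9.77 at 0 h and of 8.37, 6.66 and 7.89 at 3 h, for replicates 1, 2 and 3. Its KO signals went from 9.82, 9.55 and 9.96 to 7.77, 7.54 and 7.96, so that no 3 h array of either genotype reached its 0 h arrays. The fall was -2.04 in WT (SE 0.36, adjusted p = 6.0e-05) and -2.02 in KO (SE 0.36, adjusted p = 6.7e-05). Irf9, the DNA-binding partner of Stat2, fell (-1.18 in WT, -1.33 in KO), and so did Irf1, the factor downstream of interferon gamma (-1.07 and -1.12). Irf7, which amplifies interferon production, fell by 1.48 in WT (adjusted p = 0.047), and its difference in KO was -1.33 (adjusted p = 0.076).

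Among the effectors, all 4 of the Mx and guanylate-binding GTPases fell in both genotypes, as did all 3 of Parp9, Dtx3l and Parp14, which act in ADP-ribosylation and ubiquitin transfer. Mx1, an interferon-induced gene of the Mx family, went from 9.09, 9.56 and 9.67 to 8.46, 5.89 and 6.68 in WT. In KO it went from 8.79, 9.04 and 9.77 to 7.65, 6.88 and 6.62. Every 3 h array lay below every 0 h array, with WT replicate 1 the nearest. The difference was -2.43 in WT (SE 0.66, adjusted p = 0.0044) and -2.15 in KO (SE 0.66, adjusted p = 0.011). Samd9l, which encodes an antiviral and growth-restraining protein, had 13.22, 13.22 and 13.40 at 0 h and 11.16, 10.54 and 10.95 at 3 h in WT. In KO it went from 13.28, 12.98 and 13.35 to 10.76, 11.02 and 10.96. It fell by 2.40 in WT (SE 0.27, adjusted p = 1.6e-07) and fell by 2.29 in KO (SE 0.27, adjusted p = 3.3e-07).

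The families of RNA sensors were less uniform. Of the 5 genes for oligoadenylate synthetases or their relatives, Oas1a and Oas2 fell in both genotypes. Oas3 fell in KO, but its 3 h means, 3.47 in KO and 4.83 in WT, lay under the filter level. Of the 3 IFIT genes, whose products bind foreign RNA, Ifit2 and Ifit3 fell in both genotypes, while Ifit1 differed by -0.52 in WT (adjusted p = 0.49) and by -0.68 in KO (adjusted p = 0.35). Zbp1, a sensor of Z-form nucleic acid, and Eif2ak2, which encodes the kinase PKR, fell in both, and the sensors Ifih1 (MDA5) and Dhx58 (LGP2) passed in neither. In the ISG15 system, Herc6, the mouse ISG15 ligase, and Trim25, a ligase that activates RIG-I, fell in both. Usp18, which removes ISG15 and blocks the interferon receptor, fell by 2.44 in KO (adjusted p = 0.0175) and differed by -1.80 in WT (SE 0.80, adjusted p = 0.081). The WT values of Usp18 at 3 h were 8.95, 5.82 and 6.97 against 9.02, 8.92 and 9.22 at 0 h, with replicate 1 near the unstimulated level.

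The change of Mx2 at 3 h was measured only as a bound, because its 3 h means, 3.50 in WT and 2.98 in KO, lay under the filter level. With signals under the level raised to it, Mx2 fell at least 3.50-fold in WT (adjusted p = 0.011) and at least 3.82-fold in KO (adjusted p = 0.0034). Here and below, the adjusted p beside a fold given as "at least" comes from the limma fit of the signals as measured, not raised.

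Cxcl10, a chemokine that draws T cells and a target of both interferon and NF-kB signalling, went the other way. It had 7.01, 7.01 and 6.22 at 0 h and 8.58, 8.00 and 7.87 at 3 h in WT, and 6.51, 6.73 and 5.63 at 0 h and 8.28, 7.37 and 8.08 at 3 h in KO. All 3 h arrays lay above all 0 h arrays of their genotype. The rise was 1.41 in WT (SE 0.35, adjusted p = 0.0024) and 1.62 in KO (SE 0.35, adjusted p = 0.00064). At 8 h it was still higher, by 1.53 in WT and 1.61 in KO, and at 16 h it differed from 0 h by -0.34 (adjusted p = 0.51) and -0.03 (adjusted p = 0.96).

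**Figure D1:**
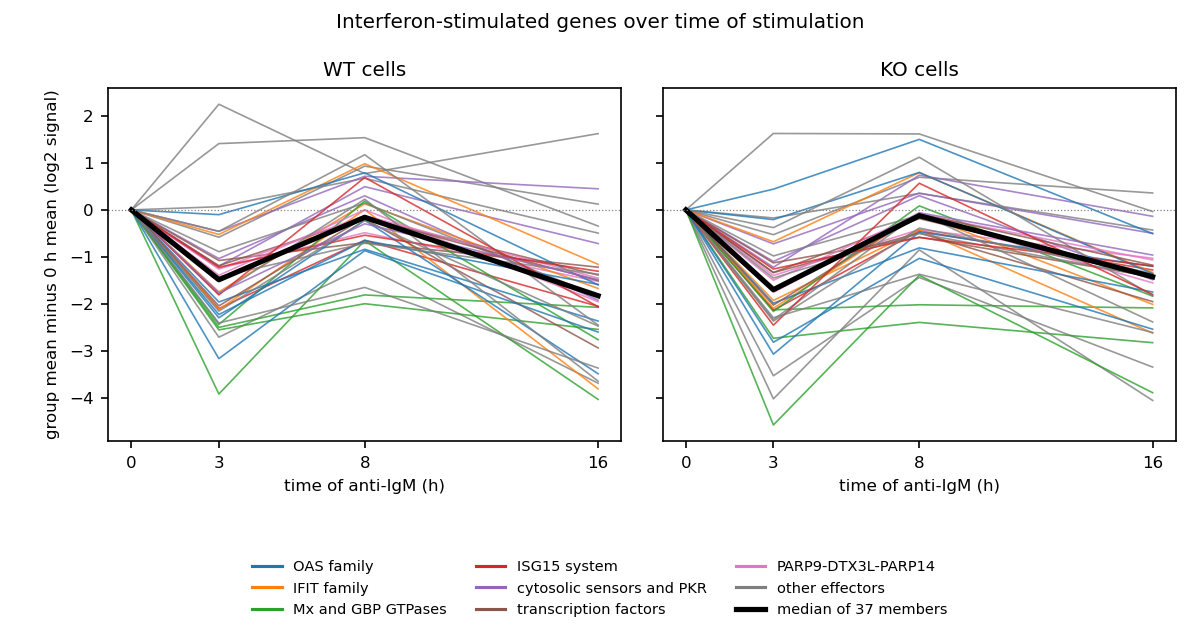
Group means of the 37 members minus the mean at 0 h (log2 signal, vertical axis) over hours of anti-IgM (horizontal axis) in WT (left) and KO (right), 1 line per gene coloured by role, with the median of the 37 in black. The medians run at -1.48, -0.16 and -1.82 in WT and at -1.69, -0.12 and -1.42 in KO for 3, 8 and 16 h.

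Between 3 and 8 h, with both genotypes averaged, 31 of the 37 members rose and none fell, against 19.9% of all genes higher and 10.1% lower. Their median difference was 1.36 and that of all genes 0.11, and all 37 differences were positive. This contrast and the 3 h contrasts share the 3 h arrays, so the values stand side by side and are not independent of each other. The 6 members that did not pass were Gbp2 (0.40, adjusted p = 0.43), Gbp3 (0.45, adjusted p = 0.16), Irf7 (1.06, adjusted p = 0.054), Cxcl10 (0.06, adjusted p = 0.90), and Oasl2 (adjusted p = 0.24) and Ifi44l (adjusted p = 0.54), whose 3 h means lay under the filter level.

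Mx1 had 10.81, 7.89 and 10.18 at 8 h in WT and 10.61, 8.22 and 9.03 in KO, and rose by 2.43 from 3 h (SE 0.46, adjusted p = 0.00028). Usp18 had 11.24, 7.42 and 10.56 in WT and 11.50, 8.35 and 10.02 in KO, and rose by 2.75 (SE 0.57, adjusted p = 0.00058). In both genes replicate 2 was the lowest of its group in both genotypes, and it lay within the range of the 3 h arrays in WT and above them in KO.

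Rsad2, which encodes viperin, an enzyme that makes a chain-ending nucleotide against viral polymerases, kept much of its level at 3 h and was highest at 8 h. Its WT arrays read 9.19, 8.98 and 9.36 at 0 h, 9.84, 7.88 and 8.44 at 3 h, and 11.15, 9.17 and 10.71 at 8 h. Its KO arrays read 8.77, 8.76 and 9.29, then 8.94, 8.22 and 8.53, then 11.44, 8.93 and 9.81. The rise from 3 to 8 h was 1.56 (SE 0.38, adjusted p = 0.0024), and the 3 h difference from 0 h passed in neither genotype (-0.46 in WT, -0.38 in KO). The 8 h difference of Rsad2 from 0 h passed in neither genotype either, and replicate 2 at 8 h lay within the 0 h range of its genotype in both. The other members that rose include Oas2 (2.03), Eif2ak2 (1.82), Stat2 (1.91), Xaf1 (1.95) and Ifit2 (1.94).

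Against unstimulated cells, 8 members passed at 8 h in each genotype, a smaller share than that of all genes, of which 33.4% passed in WT (17.7% higher, 15.7% lower) and 31.6% in KO (17.2% higher, 14.4% lower). In WT, Cxcl10, Bst2 and Ifi35 were higher and Gbp2, Gbp3, Samd9l, Oas1a and Irf1 lower. In KO, Cxcl10 was higher and Gbp2, Gbp3, Samd9l, Oas1a, Oas2, Trim25 and Cmpk2 lower. The median difference of the 37 was -0.16 in WT and -0.12 in KO. The WT count was 5, 4 or 5 without replicate 1, 2 or 3 at 0 h and 5 without replicate 3 at 8 h, and the KO count was 4, 5 or 5 without replicate 1, 2 or 3 at 0 h and 4 without replicate 3 at 8 h.

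The members Gbp2 and Gbp3, which encode guanylate-binding GTPases that attack the vacuoles of intracellular microbes, fell at 3 h and remained lower. Gbp3 had 10.41, 10.39 and 10.31 at 0 h in WT, then 7.77, 8.13 and 7.57 at 3 h, 8.97, 7.67 and 8.50 at 8 h, and 7.13, 8.39 and 7.98 at 16 h. In KO it had 10.50, 10.71 and 10.36, then 7.48, 7.93 and 7.99, then 8.49, 7.35 and 8.57, then 7.59, 7.56 and 7.96. No stimulated array reached an unstimulated one. The differences from 0 h were -2.55, -1.99 and -2.53 in WT and -2.72, -2.39 and -2.82 in KO at 3, 8 and 16 h, with SE 0.33, and the largest of the 6 adjusted p was 2.9e-05. Gbp2 differed from 0 h by -2.49, -1.80 and -2.07 in WT and by -2.12, -2.01 and -2.08 in KO, and all 6 passed. A second probe set of Gbp2 rose from 3 to 8 h (1.15, adjusted p = 0.014), where the brightest did not pass (0.40), so for Gbp2 the course after 3 h differs between probe sets.

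**Figure D2:**
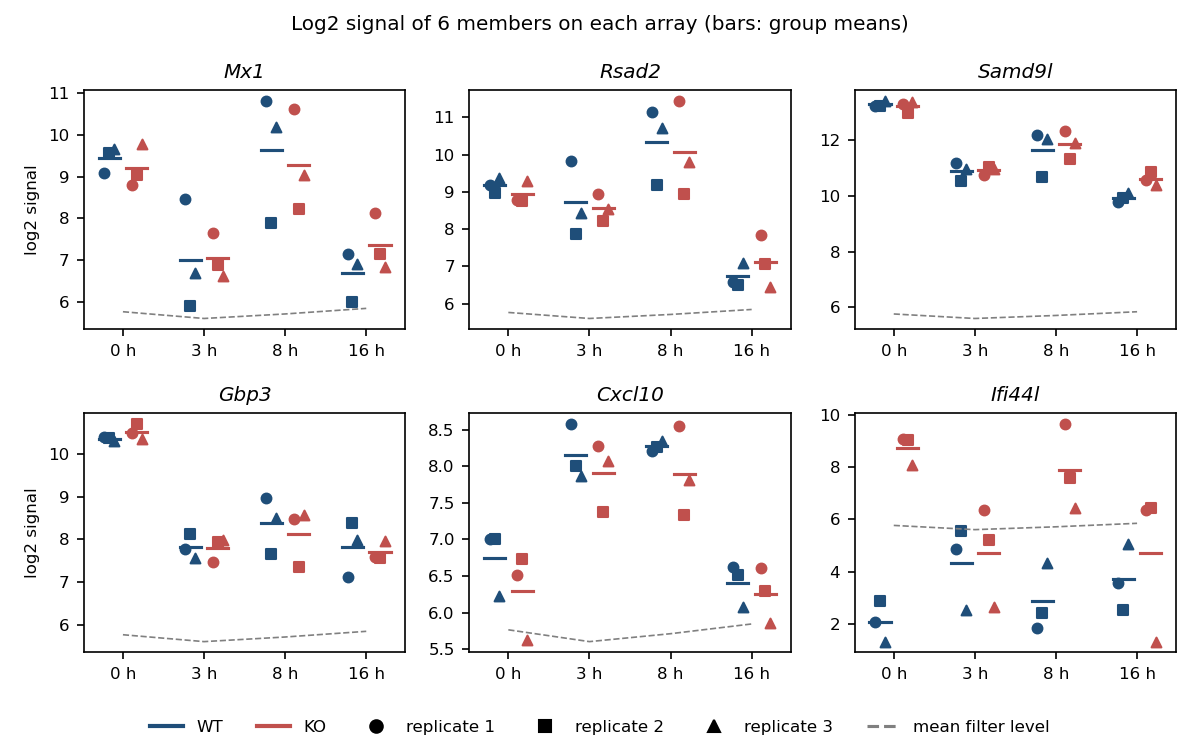
Log2 signal (vertical axis) of 6 members on each of the 24 arrays by hour of anti-IgM, WT in blue and KO in red, with the symbol giving the replicate and the bar the group mean; the dashed line is the mean filter level. Gbp3 stays low after 3 h, Cxcl10 is high at 3 and 8 h, replicate 2 is low at 8 h for Mx1, Rsad2 and Samd9l, and Ifi44l lies under the filter level on all 12 WT arrays.

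From 8 to 16 h, with the genotypes averaged, 29 of the 37 members fell and none rose, against 7.76% of all genes lower and 7.83% higher. Their median difference was -1.47 and that of all genes 0.05. Rsad2 reached 6.58, 6.51 and 7.10 in WT and 7.85, 7.06 and 6.45 in KO, below each of its 8 h arrays, and fell by 3.27 (SE 0.38, adjusted p = 1.5e-06). Rtp4, which encodes an interferon-induced receptor transporter, had 11.99, 9.09 and 11.26 at 8 h and 6.57, 6.27 and 7.92 at 16 h in WT. In KO it had 11.75, 9.11 and 10.63, then 9.31, 7.34 and 7.92, so that only KO replicate 1 at 16 h overlapped an 8 h array. Its fall was -3.08 (SE 0.49, adjusted p = 8.7e-05).

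By 16 h 29 members were lower than at 0 h in WT and 28 in KO, and none was higher, against 18.4% of all genes lower and 20.9% higher in WT and 16.4% lower and 19.4% higher in KO. Of these, 26 were lower in both, among them all 4 transcription factors, both Mx and both guanylate-binding genes, and Parp9, Parp14 and Dtx3l. The 6 that passed in neither were Oas3, Ifih1, Eif2ak2, Bst2, Ifi35 and Cxcl10. The median difference was -1.82 in WT and -1.42 in KO. Ifit3 had 3.93, 6.92 and 6.46 at 16 h in WT against 9.58, 9.30 and 9.82 at 0 h. With its signals under the filter level raised to it, it was at least 8.60-fold lower (adjusted p = 0.00012). Samd9l fell by 3.36 in WT (SE 0.27, adjusted p = 6.7e-10) and fell by 2.60 in KO (SE 0.27, adjusted p = 5.4e-08).

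The course from 3 h on was not equally steep in the 3 replicates. At 8 h the arrays numbered 2 were the lowest of their group in both genotypes for 32 of the 37 members (86.5%), against 12.5% of all genes. The exceptions were Oasl2, Eif2ak2, Ifi44l, Tap1 and Cxcl10. At 0, 3 and 16 h the same held for 11, 10 and 9 members, with 12.3%, 12.8% and 11.1% of all genes. The median of the 37 at 8 h, as a shift from the 0 h mean, was 0.72, -1.27 and 0.40 for WT replicates 1, 2 and 3 and 0.82, -0.98 and -0.18 for KO. Within replicate numbers, the median difference between 8 and 3 h was 1.68, 0.29 and 1.99 in WT and 2.21, 0.61 and 1.42 in KO. The direction was thus the same in all 6, and 28 and 30 of the 37 members were still higher at 8 h in WT and KO replicate 2.

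A list of 42 further tested interferon-stimulated genes shifted likewise at 8 h, by medians of 0.54, -0.81 and 0.02 in WT and 0.30, -0.71 and -0.27 in KO. WT replicate 2 is of male-type expression at every time and KO replicate 2 at 8 h has a high median signal, and their part in the low values was not tested. Without the 8 arrays numbered 2, 34 members rose from 3 to 8 h and 32 fell from 8 to 16 h, against 15.7% and 4.17% of all genes. This fit was chosen after the arrays were seen. In that fit the median of the 37 at 8 h against 0 h turned positive, 0.53 in WT and 0.15 in KO. It called 6 members higher in WT (Usp18, Eif2ak2, Rsad2, Bst2, Ifi35 and Cxcl10) and 4 in KO (Rsad2, Bst2, Ifi35 and Cxcl10), with Gbp2, Gbp3 and Samd9l lower in both. Of all genes it called 13.7% higher and 11.4% lower in WT, and 14% higher and 11.1% lower in KO, so these member counts lie near the shares of all genes. By the medians, whether the members at 8 h had returned to the level of 0 h or passed it differed between replicate numbers. At 3 h the array that stood apart was WT replicate 1, with a median shift of -0.86 against -1.92 and -1.78 in the other 2.

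**Figure D3:**
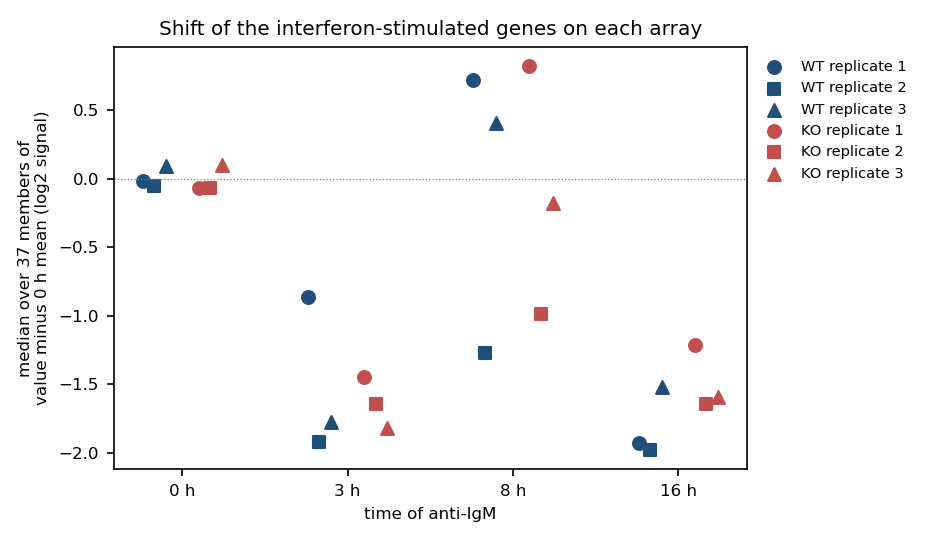
Median over the 37 members of each array's log2 signal minus the 0 h mean of its genotype (vertical axis), by hour of anti-IgM, WT in blue and KO in red, with the symbol giving the replicate. At 8 h replicate 2 lies at -1.27 in WT and -0.98 in KO while replicate 1 lies at 0.72 and 0.82.

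The comparison of genotypes asks whether B cells without NFATc1 run this programme differently. Over the 4 times 1 of the 37 members differed between KO and WT, against 1.21% of all genes. None of the 37 passed the joint F-test of genotype by time (lowest adjusted p = 0.92), against 2 of all genes (0.014%). In that test 1 member had an unadjusted p under 0.05, against 2.80% of all genes. None passed a single difference in change either, where 0, 0 and 3 of all genes passed at 3, 8 and 16 h (0%, 0% and 0.0209%). At an unadjusted p under 0.05 were 1, 0 and 1 members, against 2.30%, 3.11% and 4.37% of all genes. The 95% interval of the averaged difference lay within 1 log2 unit of no difference for 32 members. It did not for Oas3, Oasl2, Mx2 and Usp18, so larger differences remain possible there, and that of Ifi44l, 2.003 to 4.521, lay wholly above it. The intervals of Oas1a (0.134 to 0.748) and Irf1 (-0.502 to -0.015), which are not adjusted for the number of genes, lay to one side of no difference, and neither gene passed. At a single time the intervals were wider, and 17, 14, 15 and 9 members lay within 1 log2 unit at 0, 3, 8 and 16 h.

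The member that passed was Ifi44l, an interferon-induced gene of unsettled function. On WT arrays it read 2.07, 2.87 and 1.32 at 0 h, 4.88, 5.56 and 2.54 at 3 h, 1.85, 2.41 and 4.31 at 8 h, and 3.55, 2.51 and 5.05 at 16 h, under the filter level on all 12. On KO arrays it read 9.06, 9.04 and 8.09 at 0 h, 6.34, 5.19 and 2.63 at 3 h, 9.64, 7.57 and 6.43 at 8 h, and 6.34, 6.41 and 1.32 at 16 h. The genotypes do not overlap at 0 h and at 8 h, and they overlap at 3 and 16 h. Averaged over time KO was higher (adjusted p = 0.0047), with signals under the filter level raised to it at least 2.65-fold. At 0 h KO was at least 7.60-fold higher (adjusted p = 0.044), the 1 member called there where 0.0349% of all genes were. At 8 h KO was at least 4.65-fold higher, which did not pass (adjusted p = 0.17), and no member passed at 8 h, where 0.0977% of all genes did.

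Within KO, where the signal can be followed, Ifi44l was at least 7.30-fold lower at 3 h than at 0 h (adjusted p = 0.011) and at least 6.43-fold lower at 16 h (adjusted p = 0.011), and at 8 h it differed by -0.85 (adjusted p = 0.67). A second probe set for Ifi44l, whose WT means of 1.71 to 2.97 lay under the filter level, was higher in KO over the 4 times (adjusted p = 0.0016), and its 0 h means of 8.06 in KO and 2.97 in WT did not pass (adjusted p = 0.48). The averaged call was lost when arrays of the same genotype and number were treated as a random block (adjusted p = 0.0548) and without the 8 arrays numbered 2 (adjusted p = 0.24). The fitted difference was 3.26 with all arrays and with the random block, and 3.03 without the arrays numbered 2. The 0 h call was lost with any of 14 single arrays left out (adjusted p from 0.0502 to 0.181, fitted difference 6.26 to 7.03). These were the 6 arrays at 0 h, replicates 1 and 2 of WT at 3, 8 and 16 h, and replicate 2 of KO at 3 and 8 h. Without KO replicate 3 at 16 h, 1 member passed at 8 h.

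Oasl2, an interferon-induced relative of the oligoadenylate synthetases, lay on the other side at 0 h, with 5.15, 8.33 and 6.72 in WT and 1.26, 3.09 and 6.32 in KO. The groups overlap, the KO mean of 3.56 lay under the filter level, and the difference did not pass after adjustment (unadjusted p = 0.0243 in limma). Its replicates were scattered at all times, from 1.32 to 5.58 in KO at 16 h.

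At 16 h no member passed, against 0.614% of all genes, and 4 of the 37 had an unadjusted p under 0.05, against 7.07% of all genes. Of the 37 differences 27 were positive, against 51.3% of all genes, with a median of 0.32 where that of all genes was 0.01. Without the 8 arrays numbered 2, 28 were positive with a median of 0.27, and none passed. Samd9l read 9.77, 9.91 and 10.10 in WT and 10.58, 10.84 and 10.39 in KO, so the groups do not overlap, and differed by 0.68 (SE 0.27, adjusted p = 0.53). Xaf1, a pro-apoptotic partner of XIAP, read 7.44, 7.55 and 8.79 in WT and 9.02, 8.92 and 9.22 in KO, again without overlap, and differed by 1.13 (SE 0.45, adjusted p = 0.53). The other 2 with a low unadjusted p were Oas1a (0.90, adjusted p = 0.30) and Ifih1 (-0.93, adjusted p = 0.71). Single markers of cell types also differed at 16 h. Adgre1, 1 of 7 macrophage markers, was higher in KO (10.25 against 9.07, adjusted p = 0.019), with summed levels of 11.72 to 13.24 in KO and 11.09 to 12.15 in WT. Cd28, 1 of 5 T cell markers, was higher in KO (8.06 against 6.48, adjusted p = 0.013), and so was the B cell marker Cd22 (12.59 against 11.17, adjusted p = 0.00054). Their part in the shift of the members was not tested. At 3 h no member passed (0.0558% of all genes did), and none had an unadjusted p under 0.05, while 3.70% of all genes had one. Of the 37 differences at 3 h 25 were negative, while 51.8% of all genes were positive. At 8 h 24 of the 37 were negative, with a median of -0.11, while 55.5% of all genes were positive. Without the arrays numbered 2, 29 were negative at 3 h (median -0.25) and 33 at 8 h (median -0.25). The 8 h median was -0.71 without the 4 male-type arrays and 0.31 without the 2 arrays of highest median, so its sign depended on the arrays used.

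**Figure D4:**
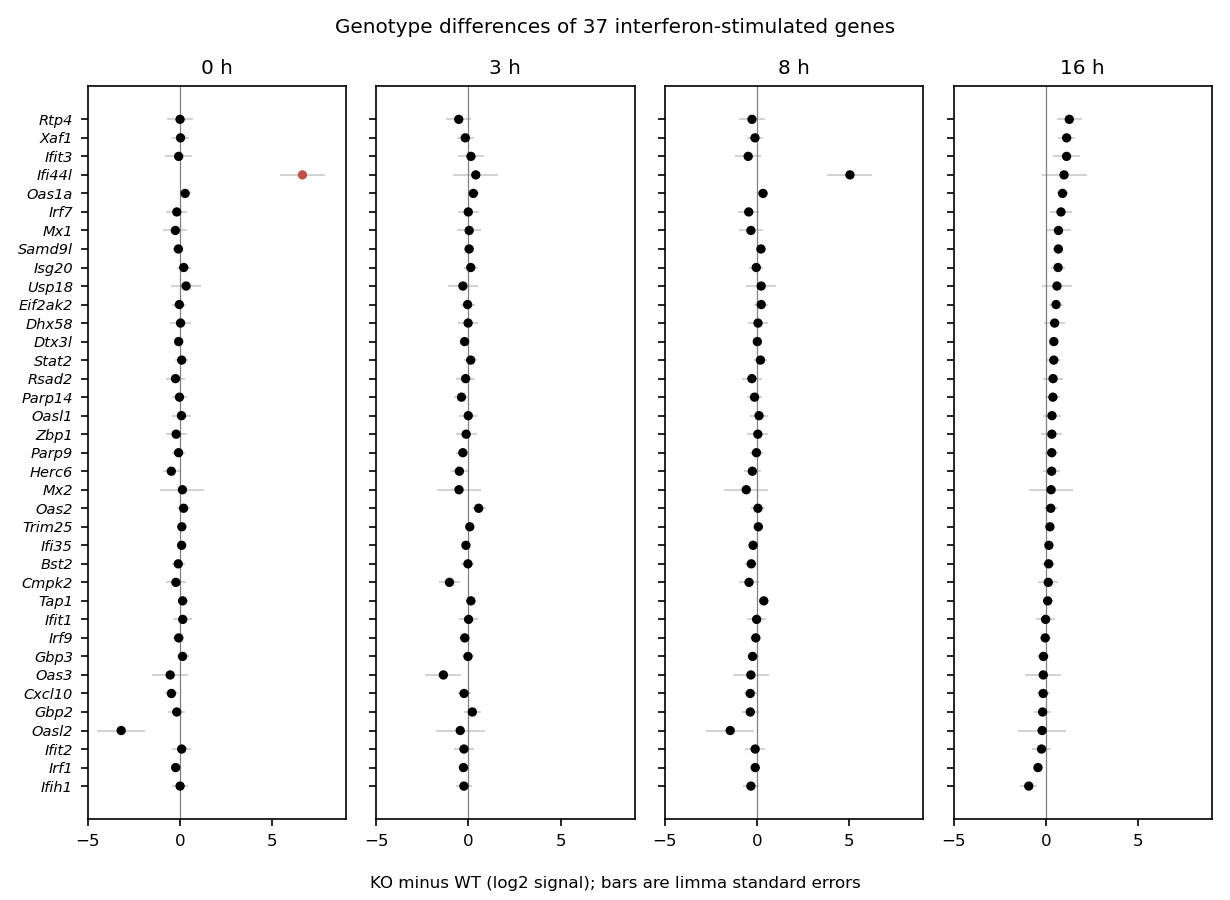
KO minus WT difference of each of the 37 members (points, log2 signal, horizontal axis) with limma's standard error (bars) at 0, 3, 8 and 16 h, ordered by the difference at 16 h; red marks the 1 difference that passed, Ifi44l at 0 h. At 16 h 27 of the 37 points lie to the right of 0.

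The pathway around these genes moved in part. Among the ligands, 3 were tested. Ifnb1 read 3.96 to 6.47 over the 24 arrays and Ifna1 1.63 to 6.75, close to or under the filter level, and neither passed any contrast of genotype or time. Ifng, which encodes interferon gamma, was lower in KO over the 4 times (5.97 against 8.01, adjusted p = 0.00015) and at 16 h (adjusted p = 0.011). Some KO arrays lay under the filter level, and with these raised to it Ifng was at least 3.48-fold lower over the 4 times and at least 5.95-fold lower at 16 h. In WT it was higher at 8 h and at 16 h than at 0 h. At 16 h its WT arrays read 8.63, 8.98 and 8.83 and its KO arrays 4.71, 6.40 and 6.54. Natural killer cells also make interferon gamma. Of 6 tested markers of these cells 1, Nkg7, was lower in KO at 16 h (3.96, under the filter level, against 6.61, adjusted p = 0.026). The other 5 did not pass, with the means of Ncr1, Gzmb and Prf1 higher in KO and those of Klrk1 and Gzma lower. The sums of the 6 were 7.79 to 8.60 in KO and 8.14 to 8.57 in WT. Over the 4 times none of the 6 passed, and their median difference was 0.15. Between 1 and 5 of the 6 had a group mean under the filter level, and their part in the Ifng difference was not tested.

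At 3 h 21.3% of all genes fell and 17% rose in WT, and 21.7% fell and 16.6% rose in KO. Of 8 tested genes for receptors and JAK-STAT proteins, 5 fell and 1 rose in WT, and 5 fell and 2 rose in KO. Tyk2, the kinase bound to IFNAR1, fell at 3 h (-1.18 in WT, -1.27 in KO), and so did Jak1, the kinase bound to IFNAR2 (-0.83 and -0.89). Ifnar2 was higher in KO by 0.31 over the 4 times (adjusted p = 0.029). Of 7 feedback inhibitors 3 fell in each genotype at 3 h and 1 rose in WT. Socs3, which inhibits JAK kinases, fell (-2.81 and -2.80), and Ptpn6, the phosphatase SHP-1, was higher in KO at 16 h by 0.52 (adjusted p = 0.024). Of 5 other interferon regulatory factors, Irf2, a repressor at the response element, fell at 3 h (-2.41 and -2.32), and Irf4, which receptor signalling induces in B cells, rose by 1.75 and 2.20.

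Of 11 tested genes for nucleic acid sensing, 5 fell in each genotype at 3 h and 1 rose in KO. Among those that fell were Sting1 (-2.35 in WT, -2.40 in KO) and Ddx58, which encodes RIG-I (-2.15 and -2.09). From 3 to 8 h 4 of the 11 rose and 2 fell, where 19.9% of all genes rose and 10.1% fell. Of 9 genes for the immunoproteasome and peptide loading, 7 fell and 1 rose in WT at 3 h and 6 fell and 1 rose in KO, with Psmb9, a catalytic subunit, at -2.04 and -2.05. Erap1, the peptide-trimming protease, was the one that rose, by 1.29 and 1.23. From 3 to 8 h 5 of these 9 rose and 1 fell, and from 8 to 16 h 1 fell. The member Tap1, the peptide transporter, fell at 3 h (-1.42 and -1.44) and rose by 0.83 from 3 to 8 h.

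The list of 42 further interferon-stimulated genes had 27 lower and 4 higher in WT at 3 h and 28 lower and 2 higher in KO. From 3 to 8 h 30 rose and none fell, and from 8 to 16 h 28 fell and 2 rose. The 2 that rose late were Ifitm2, a restriction factor of virus entry (1.99), and Plscr1, a phospholipid scramblase. At 3 h the change of Trim34a was -3.33 in WT and -3.76 in KO, and that of Ifi209 was -3.25 and -3.57. In the genotype contrasts Plscr1 was lower in KO over the 4 times (-0.73, adjusted p = 0.0088) and Ms4a4c higher at 16 h (0.77, adjusted p = 0.016). Like the 37, this list was drawn up with results of these data known, so its counts are a description.

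**Figure D5:**
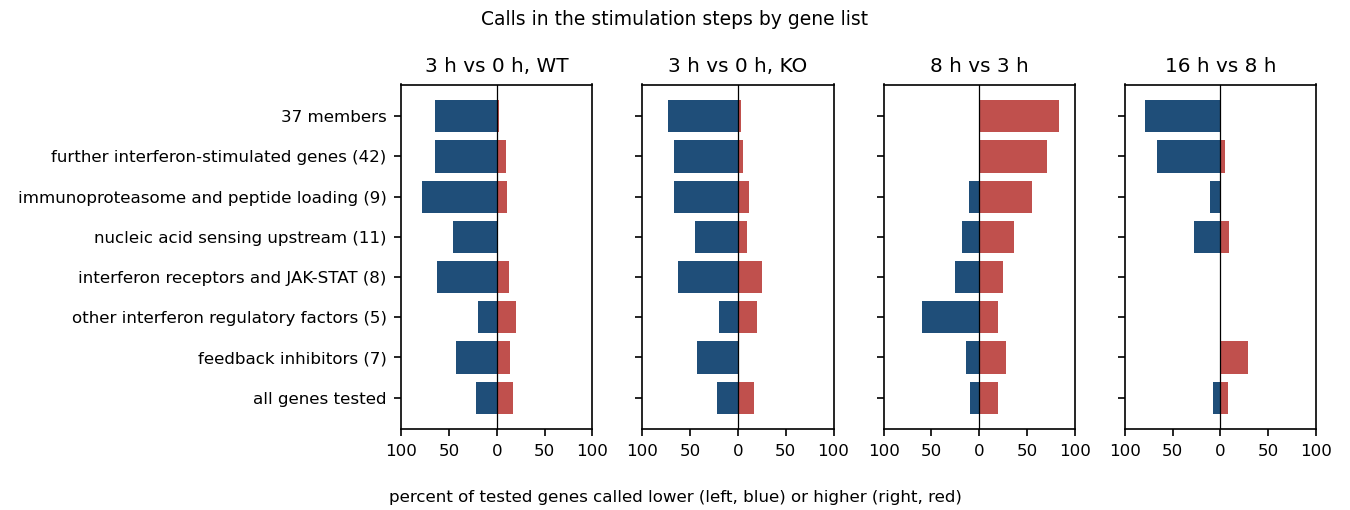
Percent of the tested genes of each list (number tested in brackets) called lower (left, blue) or higher (right, red) at an adjusted p under 0.05, in WT and KO at 3 h against 0 h, and with the genotypes averaged at 8 h against 3 h and at 16 h against 8 h. The 37 members and the 42 further interferon-stimulated genes are mostly lower at 3 h, higher at 8 h than at 3 h, and lower at 16 h than at 8 h.

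Markers of other spleen cells were read beside these changes, and their part in them was not tested. The summed log2 level of 7 tested macrophage markers was 12.08 to 13.49 on the 0 h arrays, 10.84 to 12.64 at 3 h, 10.83 to 12.22 at 8 h and 11.09 to 13.24 at 16 h, and at most 1 of the 7 had a group mean under the filter level. Lyz2 fell at 3 h in both genotypes (-1.70 in WT, -1.92 in KO), Cd14 rose in KO (2.12), and the other 5 passed in neither genotype. Adgre1 rose from 3 to 8 h (1.28) and from 8 to 16 h (0.83). Of 5 tested T cell markers 2 or 3 had a mean under the filter level in every group, and the sum lay between 8.25 and 9.94 over all arrays. Cd3d and Cd3e had means of 2.76 to 5.85 at 0 and 3 h, while Cd28 rose at 3 h (0.94 in WT, 1.44 in KO), rose again from 3 to 8 h (1.25) and fell from 8 to 16 h (-1.62).

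Plasmacytoid dendritic cells make much type I interferon. Of their 5 tested markers that are not members, 1 or 2 had a group mean under the filter level. Siglech had group means between 3.99 and 5.93, near or under that level, and Cox6a2 between 6.48 and 7.34. Ccr9 rose at 3 h (5.21 to 10.20 in WT, 5.54 to 9.81 in KO) and fell from 8 to 16 h (-3.56), and Klk1 rose at 3 h in both genotypes (1.04 in WT, 0.97 in KO). Tcf4, with group means from 11.26 to 13.34, rose from 3 to 8 h (1.13) and from 8 to 16 h (0.62). The summed level of the 5, in which Tcf4 is the largest term, was 11.70 to 12.26 at 0 h, 11.88 to 12.33 at 3 h, 12.44 to 13.05 at 8 h and 12.91 to 13.53 at 16 h.

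Where a member had several probe sets, their signs were compared. Of 23 other kept probe sets of 16 members, 21 had the sign of the brightest one in WT at 3 h and all 23 had it in KO at 3 h, from 3 to 8 h and from 8 to 16 h, and the 2 of opposite sign did not pass. The sizes could differ, as for Dhx58, where one dimmer probe set differed by -0.15 from 8 to 16 h (adjusted p = 0.88) and another by -1.74 (adjusted p = 0.0061). Probe sets of the OAS, IFIT, Mx and GBP families may also capture close paralogs, which these files do not separate.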

How the data were processed

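RNA of splenic B cells was measured on 24 Affymetrix arrays, 3 for each genotype and time. The deposited values are log2 signals of 45101 probe sets, made with MAS5 per the submitters' processing notes, and 100% of signals under 50 lie within 0.002 of a 1-decimal value when unlogged. Each array's trimmed mean is 500 on the linear scale, so a global shift in RNA content cannot be seen. The number of arrays limits the precision.

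Probe sets above the 40th percentile of their array in at least 3 arrays were kept, those with 1 gene symbol were reduced to the brightest per gene, and 14335 genes were fitted with limma 3.58.1 in R 4.3.3 (8 group means, trended eBayes, p adjusted by Benjamini-Hochberg over all genes, threshold 0.05). Of the probe sets 34958 have 1 symbol, 932 have several and 9160 have no listed symbol, and control probe sets were left out. A fold given as "at least" raises signals under the 40th percentile to it. The adjusted p beside such a fold is that of the main limma fit, on signals that were not raised. The fit was tested on simulated data. Named genes were the members, and in other lists at most 4 genes with the largest difference per contrast and those called between genotypes. The members and lists were chosen with earlier results of these data known. Samples were grouped by the labels' genotype and time. Nothing states that equal numbers pair arrays, so no block was used. Alternatives were other filters, scalings, probe-set rules, blocks and left-out arrays.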

Additional observations from a re-analysis of the deposited data

How the results depend on the processing

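No call on a member turned direction: of 6577 comparisons of a member's call with an alternative, 6220 kept the call, 357 lost it and 0 reversed. The 1 member called between genotypes over the 4 times, Ifi44l, became 0 with arrays of a genotype and number as a random block and without the arrays numbered 2. The 1 called at 0 h became 0 with a 60th percentile filter, without the variance trend, with every probe set tested, without the male-type arrays, without the arrays numbered 2, and without the 2 arrays of highest median. With one array left out the count was 0 to 1 at 0 h and 0 to 1 at 8 h. For 8 h against 0 h the WT count of 8 was 4 with median scaling and 5 without the trend, and 4 to 11 with one array left out, and the KO count of 8 was 4, 4 and 4 to 10. With one array left out the other counts were 19 to 27 (WT 3 h), 26 to 30 (WT 16 h), 21 to 28 (KO 3 h), 20 to 29 (KO 16 h), 27 to 33 (3 to 8 h) and 27 to 32 (8 to 16 h). With the replicate number as a fixed block the count was 12 in WT and 12 in KO at 8 h against 0 h, and 1 over the 4 times. Same-numbered KO and WT arrays correlated over 0.1 in 3 of 12 pairs, and 10 of 12 KO arrays correlated best with their own number, a hint from the data and not the design. Over all genes the count between genotypes over the 4 times was 173, and 85 with median scaling, 425 with the fixed block, 46 with the random block, 86 without the male-type arrays and 37 without the arrays numbered 2. The cause of these changes was not tested. Leaving out the arrays numbered 2, the male-type arrays or the 2 of highest median was chosen after seeing the data.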
